A study of Pongo abelii with 6 samples.

Results

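Solute carriers (SLC genes) encode the largest group of membrane transporters in mammals. They move sugars, amino acids, vitamins, nucleosides, ions and metals across the plasma membrane and the membranes of organelles. The rule took every protein-coding symbol of the orangutan RefSeq gene table made of SLC, a family number, letters and a member number. It found 363 genes. Of these, 245 had at least 1 transcript of the table paired with their symbol, among 11922 protein-coding genes and 15205 genes of any kind with a paired transcript. Their 367 paired transcripts were summed per gene. The other 118 genes were not analysed here, among them SLC2A3, SLC16A1, SLC1A5, SLC7A5, SLC7A11, SLC38A2, SLC25A4, SLC25A5 and SLC25A6. SLC4A1AP, SLC7A6OS and SLC2A4RG match the rule by name but are not transporters, and they are among those 118.

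The libraries are rRNA-depleted total RNA from 2 induced pluripotent stem cell lines of Sumatran orangutans (Pongo abelii), Dokana and Djasinga, 3 of each line. Both lines were kept on Matrigel in StemMACS iPS-Brew medium with 1 uM IWR1 and 0.5 uM CHIR and were passaged in clumps with versene over 3 sequential passages. No genetic change or treatment beyond this shared medium separates the groups in the titles, although a treatment label calls the cells differentiated and a genotype label names small RNA. Each group is 1 line, and the series' design text calls the passages technical replicates, so SDs and p-values measure the spread between cultures of a line and not between animals.

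Values are TPM, a length-corrected share of a library's RNA, so levels of different genes are compared here per length. TPM holds no read depth, so the depth behind each value is unknown and no counting interval can be given. A single assembled transcript without a symbol took 16.9% to 28.2% of the TPM of Dokana libraries and 26.7% to 42.4% of those of Djasinga. Named genes together held 15.1% to 17.6% and 11.9% to 13.8%. RNA of a solute carrier gene in transcripts without a symbol is not counted, so its level may be partial. The median gene was 0.29 lower in Djasinga on the log2(TPM + 1) scale (log2 difference -0.29 over 6255 genes tested). Differences are therefore also given after median-ratio scaling, which brings the median gene close to 0. Dokana replicate 3 and Djasinga replicate 3 lay at the 2 ends of the first principal component over genes (scores -37.3 and 25.5, the other libraries between -19.2 and 16.9).

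The pluripotency markers NANOG, SOX2, SALL4 and DNMT3B ranged from 31.6 to 101 TPM over the 6 libraries. Of 12 pluripotency markers, 8 had a paired transcript, and their sum was 463 to 582 TPM in Dokana and 327 to 411 in Djasinga. The fibroblast list, with 8 of 9 markers paired, summed to 8.62 to 10.1 TPM in Dokana and 5.80 to 8.53 in Djasinga, and its part in the differences below was not tested. Most of that sum was TWIST2, at 5.09 to 6.16 TPM in Dokana and 3.06 to 3.71 TPM in Djasinga without overlap, and COL1A2, at 1.71 to 4.24 TPM over the libraries. The fibroblast matrix genes COL3A1, DCN and LUM reached at most 0.00903, 0.0467 and 0.0871 TPM. The highest single values of the endoderm, mesoderm, neuroectoderm and trophoblast lists were 0.102, 1.41, 1.83 and 0.0437 TPM.

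Of the 245 paired solute carrier genes, 87 (35.5%) had a mean of at least 1 TPM over the 6 libraries, 14 (5.71%) of at least 10 TPM and 2 of at least 100 TPM. Among all 11922 protein-coding genes with a paired transcript the shares were 42.0%, 12.4% and 0.898%. The median level was 0.403 TPM for solute carriers and 0.576 TPM for protein-coding genes. In their paired transcripts 13 of the 245 were listed at 0 in every library. Among them were SLC2A2, the glucose transporter of liver and pancreas, SLC30A8, a zinc transporter of insulin granules, and SLC4A1, the anion exchanger of red blood cells. Together the 245 genes summed to 1348 ± 208 TPM in Dokana and 1113 ± 131 TPM in Djasinga (SD, n = 3). This was 1.40% to 1.54% of the TPM of named protein-coding genes in Dokana libraries and 1.49% to 1.69% in Djasinga libraries. The 4 most abundant members held 53.3% to 60.7% of the members' sum in a library.

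**Figure D1:**
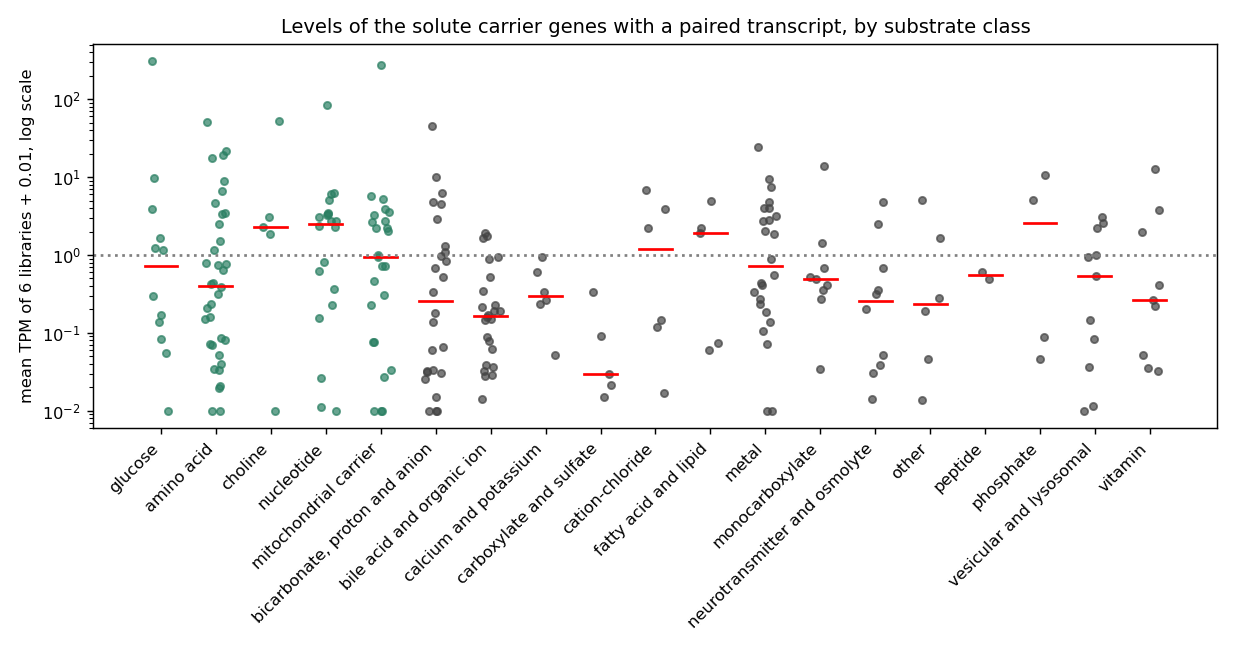
Mean TPM over 6 libraries plus 0.01, on a log scale, of the 245 solute carrier genes with a paired transcript, by substrate class. Each point is a gene, the red line is the class median, the dotted line marks 1 TPM, and green classes are the 5 described in most detail. Of the green classes, the glucose, choline, nucleotide and mitochondrial ones each have a single gene far above the rest.

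Among the paired genes SLC2A1 and SLC25A3 headed the order of levels, with means of 305 and 272 TPM. Each was at percentile 99.7 of detected protein-coding genes. Solute carriers without a paired transcript have no place in this order. SLC2A1 was the higher in 4 of 6 libraries, so their order was not fixed across libraries. SLC29A1 followed at 84.1 TPM, below SLC25A3 and above SLC44A1 in all 6 libraries. SLC44A1 (52.2 TPM), SLC3A2 (50.8 TPM) and SLC4A7 (44.7 TPM) came next. SLC44A1 exceeded SLC3A2 in 4 of 6 libraries and SLC3A2 exceeded SLC4A7 in 3 of 6, so these neighbours were not separated by their spread. SLC39A1, SLC36A4, SLC7A1, SLC38A1, SLC16A3, SLC5A6, SLC37A3 and SLC26A2 had means from 24.4 down to 10.1 TPM, and each exceeded the next in 3 or 4 of 6 libraries.

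**Figure D2:**
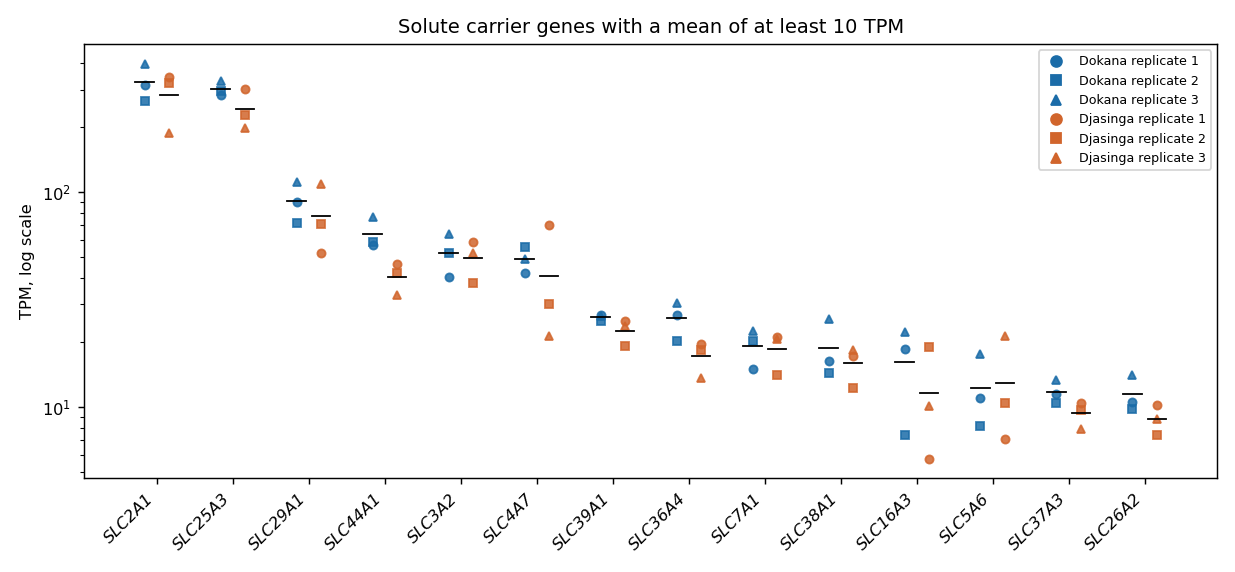
TPM per library, on a log scale, of the 14 solute carrier genes with a mean of at least 10 TPM. Colour marks the line, symbol the replicate, and black bars the mean of each line's 3 libraries. SLC2A1 and SLC25A3 lie above all others, and the lines overlap in most genes.

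Of 17 sugar transporter genes 12 were paired, and SLC2A3 was not among them, so its level is unknown. Among the paired ones SLC2A1 (GLUT1), which carries glucose into most cell types, was by far the most abundant. Its level was 314, 265 and 396 TPM in Dokana replicates 1, 2 and 3, and 343, 324 and 187 TPM for Djasinga in the same order. As deposited, the highest value was a Dokana library and the lowest was Djasinga replicate 3, and the lines overlapped (log2 difference -0.22, SE 0.28, limma adjusted p 0.636). After median-ratio scaling it was at 281, 267 and 293 TPM in Dokana and 361, 377 and 217 TPM in Djasinga. The highest library was then Djasinga replicate 2, the lowest was still Djasinga replicate 3, and the lines overlapped. SLC2A1 held 92.4% to 97.0% of the summed TPM of the 12 paired genes of this class. SLC50A1, a sugar transporter of the SWEET family, was at 12.03 ± 4.28 TPM in Dokana and 7.18 ± 2.07 TPM in Djasinga (SD, n = 3). SLC2A6, a lysosomal member of the GLUT family, was at 1.60 ± 0.363 and 1.65 ± 0.535 TPM. SLC2A11 was at 1.37 ± 0.496 and 1.07 ± 0.294 TPM, and SLC2A4 (GLUT4), the insulin-responsive transporter of muscle and fat, was at 1.297 ± 0.0657 and 1.00 ± 0.151 TPM. The 6 remaining paired genes were at or below a mean of 0.291 TPM.

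SLC2A5 (GLUT5), the fructose transporter, was the only solute carrier gene whose sum passed the threshold between the lines. It was at 5.53, 5.94 and 6.11 TPM in Dokana and 1.77, 1.83 and 2.17 TPM in Djasinga. All 3 Djasinga libraries lay below all 3 Dokana libraries. The difference in log2(TPM + 1) was -1.23 (SE 0.17, limma adjusted p 0.0437), or -0.94 relative to the median gene. The call was not held after median-ratio scaling (log2 difference -0.96, limma adjusted p 0.122), with the replicate number as a block (adjusted p 0.174), or without any 1 of the 6 libraries (adjusted p 0.0911 to 0.187). The ratio of SLC2A1 to SLC2A5 TPM, which no scaling of a whole library changes, was 44.6 to 64.8 in Dokana and 86.5 to 194 in Djasinga. The ratio also carries differences in SLC2A1, and it is a description that reuses the called values of SLC2A5.

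Both of its named transcripts were lower in Djasinga, and 1 of them passed the threshold. XM_009235487.2 was at 1.93, 1.87 and 3.15 TPM in Dokana replicates 1, 2 and 3. In Djasinga it was at 0.375 and 0.294 TPM in replicates 1 and 3 and listed at 0 in replicate 2. It entered the fit through Dokana alone, so its direction was fixed by the filter. It differed by -1.43 on the log2 scale (SE 0.23, limma adjusted p 0.0337) and by -1.27 after median-ratio scaling (limma adjusted p 0.0479), but not past the threshold with the replicate block (limma adjusted p 0.0694). The RefSeq transcript NM_001131310.1 was at 3.60, 4.07 and 2.95 TPM in Dokana and 1.39, 1.83 and 1.87 TPM in Djasinga (limma log2 difference -0.75, SE 0.20, adjusted p 0.170). XM_009235487.2 made up 39.3% ± 10.8 of the gene's named TPM in Dokana, against 11.6% ± 10.8 in Djasinga (SD, n = 3). Leaving out any 1 library ended this transcript's call (limma adjusted p 0.0579 to 0.147).

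Choline transporters supply the cell with choline, the precursor of the membrane lipid phosphatidylcholine. Of the 6 genes of this class 5 were paired, and SLC44A1 (CTL1), the widely expressed plasma membrane and mitochondrial choline transporter, held 84.9% to 89.9% of their sum. SLC44A1 was at 56.8, 58.3 and 76.9 TPM in Dokana and 46.3, 41.8 and 33.2 TPM in Djasinga. All 3 Djasinga libraries lay below all 3 Dokana libraries, but the sum did not pass the threshold (log2 difference -0.65, SE 0.21, limma adjusted p 0.315; -0.29 after median-ratio scaling).

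SLC44A1 had 2 named transcripts, and whether they differed unequally between the lines was not tested. The minor one, XM_024252131.1, was at 13.3, 8.11 and 14.4 TPM in Dokana and 2.42, 2.71 and 2.41 TPM in Djasinga. It passed the threshold (log2 difference -1.85, SE 0.24, limma adjusted p 0.0120), also after median-ratio scaling (-1.55, limma adjusted p 0.0140) and with the replicate block (limma adjusted p 0.0434). The call was lost without Dokana replicate 1 or Dokana replicate 3 (log2 differences -1.76 and -1.70, limma adjusted p 0.0591 and 0.0729). The major one, XM_024252129.1, was at 43.5, 50.2 and 62.4 TPM in Dokana and 43.8, 39.1 and 30.8 TPM in Djasinga, and these values overlapped (log2 difference -0.45, SE 0.23, limma adjusted p 0.383). The minor transcript made up 23.4%, 13.9% and 18.8% of the named TPM of SLC44A1 in Dokana and 5.24%, 6.48% and 7.26% in Djasinga. Its share was lower in every Djasinga library than in any Dokana library, a description of a transcript already called on the same values.

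**Figure D3:**
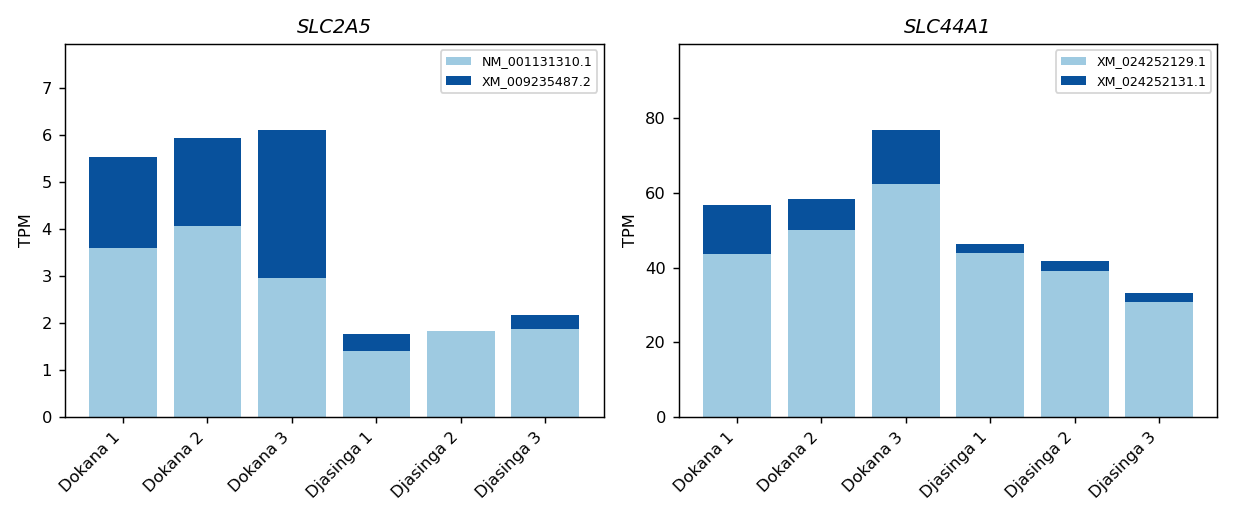
TPM of the 2 named transcripts of SLC2A5 (left) and SLC44A1 (right) in each library, stacked so that bar height is the gene's sum. The dark segments, XM_009235487.2 and XM_024252131.1, are the transcripts that passed the threshold and are smaller in all Djasinga libraries.

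The other choline transporter-like genes were lower in level. SLC44A2 was at 3.37 ± 0.886 TPM in Dokana and 2.71 ± 0.478 TPM in Djasinga (SD, n = 3). SLC44A5 was at 2.91, 2.61 and 2.89 TPM in Dokana and 1.94, 1.71 and 1.54 TPM in Djasinga (log2 difference -0.48, limma adjusted p 0.326). SLC44A3 had the opposite order, at 1.33, 1.71 and 1.61 TPM in Dokana and 2.40, 2.00 and 1.98 TPM in Djasinga (log2 difference 0.29, limma adjusted p 0.388; 0.52 after median-ratio scaling, limma adjusted p 0.446). Neither SLC44A5 nor SLC44A3 overlapped between the lines and neither passed the threshold. The ratio of SLC44A1 to SLC44A3 TPM was 34.2 to 47.7 in Dokana and 16.8 to 20.9 in Djasinga. Its separation of the lines follows from the opposite orders of both genes and adds no further support. SLC5A7, the high-affinity choline transporter of cholinergic neurons, was listed at 0 in 5 libraries and at 2.73e-08 TPM in the remaining one.

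Of 48 genes of the amino acid class 36 were paired, and SLC7A5, SLC7A11, SLC1A5 and SLC38A2 were not among them. The paired ones were led by SLC3A2 (4F2hc), the heavy chain that carries several light-chain transporters to the cell surface. It was at 40.1, 52.3 and 64.0 TPM in Dokana and 58.6, 37.8 and 51.9 TPM in Djasinga, with overlapping lines (log2 difference -0.07, limma adjusted p 0.856). Of its paired light chains, SLC7A8 (LAT2) was at 9.36 ± 2.01 and 8.27 ± 2.50 TPM and SLC7A7 at a mean of 3.33 TPM over the libraries. The ratio of SLC3A2 to SLC7A8 TPM ranged from 3.41 to 9.34. SLC7A1 (CAT1), which imports arginine and lysine, was at 19.3 ± 3.80 TPM in Dokana and 18.6 ± 3.99 TPM in Djasinga, and SLC38A1 (SNAT1), a sodium-coupled glutamine transporter, at 18.8 ± 6.05 and 15.9 ± 3.23 TPM.

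SLC36A4, a transporter of proline and tryptophan, was at 26.9, 20.3 and 30.4 TPM in Dokana and 19.7, 18.5 and 13.6 TPM in Djasinga. The lines did not overlap, by a narrow margin, and the difference did not pass the threshold (log2 difference -0.55, SE 0.23, limma adjusted p 0.334; -0.21 after median-ratio scaling, limma adjusted p 0.906). SLC38A6 was at 7.51 ± 1.42 and 5.62 ± 0.703 TPM. Of the 36 paired genes placed in the amino acid class 12 had a mean of at least 1 TPM. The 30 outside the top 6 had means up to 4.70 TPM, with a median of 0.213 TPM.

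Of 28 nucleoside and nucleotide-sugar transporter genes 20 were paired. These were led by SLC29A1 (ENT1), the equilibrative nucleoside transporter of the plasma membrane. It was at 89.5, 71.4 and 111 TPM in Dokana and 52.1, 70.8 and 109 TPM in Djasinga. Replicate 3 was the highest library in both lines, and the lines overlapped (log2 difference -0.27, limma adjusted p 0.600). As deposited, Dokana replicate 3 was the highest of the 6 libraries for 61.9% of all genes tested. After median-ratio scaling SLC29A1 was at 80.2, 72.0 and 82.5 TPM in Dokana and 54.9, 82.5 and 127 TPM in Djasinga. Most of it, among 4 named transcripts, came from transcript XM_009241905.2, which held 76.8% ± 6.33 of the named TPM in Dokana, against 75.8% ± 9.57 in Djasinga (SD, n = 3). SLC29A3, a lysosomal nucleoside transporter, was at 3.85 ± 0.322 and 3.14 ± 0.0918 TPM. SLC29A2 (ENT2) was at 1.04 and 1.89 TPM in Dokana replicates 1 and 3, listed at 0 in Dokana replicate 2, and at 0.000284, 1.02 and 0.830 TPM in Djasinga.

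Genes of the SLC35 family, whose known members load nucleotide sugars or nucleotides into the Golgi apparatus and endoplasmic reticulum, reached lower levels. SLC35D2 was at 6.76 ± 1.08 and 5.58 ± 1.78 TPM in Dokana and Djasinga, SLC35B1 at 6.55 ± 2.47 and 5.62 ± 1.78 TPM, and SLC35E3 at 5.90 ± 0.986 and 4.37 ± 0.457 TPM. SLC35D1, which carries UDP-glucuronic acid and UDP-N-acetylgalactosamine into the endoplasmic reticulum, had the largest difference towards Djasinga of the solute carriers tested. It was at 1.31, 1.15 and 1.91 TPM in Dokana and 4.45, 2.76 and 2.55 TPM in Djasinga. All Djasinga libraries lay above all Dokana libraries, while the difference did not pass the threshold (log2 difference 0.78, SE 0.24, limma adjusted p 0.306; 1.02 after median-ratio scaling, limma adjusted p 0.162). SLC35G2 had the opposite order, at 2.91, 3.72 and 3.72 TPM in Dokana and 2.90, 1.29 and 1.56 TPM in Djasinga (log2 difference -0.64, limma adjusted p 0.326). The lines were apart only by 2.914 against 2.905 TPM in replicate 1 of Dokana and Djasinga. After median-ratio scaling they overlapped (log2 difference -0.39, limma adjusted p 0.849).

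Mitochondrial carriers of the SLC25 family exchange metabolites, nucleotides and phosphate across the inner mitochondrial membrane. Of 46 such genes 25 were paired, and the adenine nucleotide translocases SLC25A4, SLC25A5 and SLC25A6 were not among them. SLC25A3, which imports the phosphate used for ATP synthesis, was at 284, 295 and 327 TPM in Dokana and 302, 228 and 199 TPM in Djasinga, with overlapping lines (log2 difference -0.33, SE 0.20, limma adjusted p 0.394; 0.03 after median-ratio scaling). It held 85.2% to 89.1% of the summed TPM of the paired carriers. SLC25A40, a glutathione carrier, was at 6.81 ± 2.00 and 4.75 ± 0.748 TPM, and SLC25A44, a carrier of branched-chain amino acids, at 5.99 ± 1.08 and 4.56 ± 1.05 TPM. SLC25A32, linked to folate and FAD transport, was at 4.36 ± 0.646 and 3.44 ± 0.941 TPM. The ATP-Mg/phosphate carriers SLC25A25 and SLC25A23 were at 3.42 ± 1.03 and 3.53 ± 0.656 TPM in Dokana, compared with 3.63 ± 2.19 and 2.95 ± 0.738 TPM in Djasinga. The other 19 paired carriers had means up to 2.68 TPM, and SLC25A36, a pyrimidine nucleotide carrier, was among 3 listed at 0 in all libraries. Such a 0 covers paired transcripts only, so RNA of these genes in transcripts without a symbol would be missed.

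Among paired genes outside these classes, ion and metal transporters held the most RNA. SLC4A7 (NBCn1), a sodium bicarbonate cotransporter that raises cell pH, was at 42.0, 55.4 and 48.8 TPM in Dokana and 70.4, 30.3 and 21.4 TPM in Djasinga. Djasinga held both its highest and its lowest library. SLC26A2, a sulfate transporter, was at 11.5 ± 2.26 and 8.81 ± 1.43 TPM and the anion exchanger SLC26A6 at 6.67 ± 2.02 and 5.73 ± 1.91 TPM. SLC39A1 (ZIP1), a zinc importer, was at 26.2 ± 0.875 and 22.7 ± 3.06 TPM, SLC41A1, a magnesium transporter, at 10.7 ± 1.48 and 8.15 ± 0.368 TPM, and SLC30A6, a zinc transporter of the Golgi apparatus, at 7.99 ± 1.34 and 6.75 ± 1.28 TPM. SLC12A2 (NKCC1), which imports sodium, potassium and chloride, was at 7.53 ± 1.91 and 5.92 ± 1.43 TPM in Dokana and Djasinga, and SLC12A4 was at 2.51 ± 1.00 and 1.92 ± 0.841 TPM.

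SLC16A3 (MCT4), a lactate exporter, was at 18.7, 7.39 and 22.4 TPM in Dokana and 5.75, 19.02 and 10.1 TPM in Djasinga, a spread of over 3-fold within each line. SLC5A6 (SMVT), which imports biotin and pantothenate, was at 11.1, 8.12 and 17.7 TPM in Dokana and 7.10, 10.5 and 21.4 TPM in Djasinga, highest in replicate 3 of both lines. After median-ratio scaling it was at 9.91, 8.18 and 13.1 TPM in Dokana and 7.48, 12.2 and 24.8 TPM in Djasinga. SLC19A1, the reduced folate carrier, was at 4.12, 4.89 and 5.10 TPM in Dokana and 3.41, 2.65 and 2.67 TPM in Djasinga, without overlap and short of the threshold (log2 difference -0.55, SE 0.18, limma adjusted p 0.321). SLC27A1 (FATP1), a fatty acid transport protein, was at 5.68, 5.39 and 6.81 TPM and 5.18, 3.85 and 2.95 TPM (log2 difference -0.50, limma adjusted p 0.337). After median-ratio scaling its lines overlapped (log2 difference -0.20, limma adjusted p 0.922). SLC23A2, a vitamin C transporter, was at 2.09 ± 1.04 and 1.87 ± 0.397 TPM.

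In the remaining classes SLC37A3 was at 11.7 ± 1.49 TPM in Dokana and 9.33 ± 1.33 TPM in Djasinga, and the phosphate importer SLC20A2 at 5.61 ± 1.26 and 4.48 ± 0.611 TPM. SLC33A1, the acetyl-CoA transporter of the endoplasmic reticulum, was at 5.54 ± 0.666 and 4.73 ± 0.672 TPM. SLC5A3, a myo-inositol transporter, was at 5.24 ± 0.652 and 4.19 ± 1.35 TPM, and the GABA transporter SLC6A11 at 2.94 ± 1.02 and 2.07 ± 0.505 TPM. SLC17A5 (sialin), which exports sialic acid from lysosomes, was at 3.52 ± 0.963 and 2.56 ± 0.461 TPM, SLC18A2 (VMAT2), the vesicular monoamine transporter, at 3.03 ± 0.684 and 2.05 ± 0.149 TPM, and SLC66A3 at 2.58 ± 0.832 and 1.79 ± 0.318 TPM. SLC27A4 and SLC27A3 were at 2.15 ± 0.561 and 2.03 ± 0.398 TPM in Dokana and 2.23 ± 0.693 and 1.75 ± 0.642 TPM in Djasinga. Of the bile acid and organic ion class SLC10A7, SLC22A5 (OCTN2, a carnitine transporter) and SLC22A24 had the highest levels, at 2.07 ± 0.690, 1.90 ± 0.348 and 1.83 ± 0.624 TPM in Dokana and 1.69 ± 0.333, 1.55 ± 0.3902 and 1.502 ± 0.299 TPM in Djasinga. SLC14A2 was at 1.82 ± 0.396 and 1.49 ± 0.177 TPM and SLC16A13 at 1.29 ± 0.0774 and 1.505 ± 0.436 TPM. The calcium and potassium, peptide, and carboxylate and sulfate classes had 0 genes tested. SLC24A1, SLC8A1, SLC8A3, SLC15A2, SLC15A3, SLC13A4, SLC13A5, SLC13A2, SLC16A6, SLC6A9, SLC34A3 and SLC45A1, among the 3 highest of their classes, stayed at a mean of 0.936 TPM or less.

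To ask whether the lines differed, genes that reached 1 TPM in 3 libraries or more were fitted with limma on log2(TPM + 1), Djasinga minus Dokana. Of 245 paired solute carriers 91 entered, of which 82 reached 1 TPM in all 6 libraries. SLC16A10 and SLC39A8 entered only through Dokana, so they had to be lower in Djasinga. In bulk RNA, fewer cells of a type and less RNA per cell cannot be told apart. With a threshold of 0.05 on the Benjamini-Hochberg adjusted p, 1 of 91 passed, SLC2A5, against 0.352% of all 6255 genes tested (0.176% lower in Djasinga, as SLC2A5 was), and 8 of 91 had an unadjusted p under 0.05, against 14.8%. After median-ratio scaling 0 of 91 passed by limma, with 4 at an unadjusted p under 0.05, against 0.32% and 7.26% of all genes. With the replicate block 0 of 91 passed by limma, against 0.0799% of all genes, and 4 had an unadjusted p under 0.05, against 10.4%. Among protein-coding genes fitted alone 1 of 91 passed, against 0.943%. Of the solute carriers' 367 transcripts 111 entered a fit of all 22561 transcripts, and 2 passed, those of SLC2A5 and SLC44A1, both lower in Djasinga, against 1.03% (0.74% lower). The SLC2A5 transcript entered only through Dokana, so it had to be lower in Djasinga. At an unadjusted p under 0.05 there were 10 of 111, against 14.5%. After median-ratio scaling 2 of 111 transcripts passed, against 0.789%, and with the replicate block 1 of 111, against 0.674%. These shares rest on 1 and 2 calls, and no difference of the group from other genes is drawn from them.

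The median log2 difference of the 91 genes was -0.23, beside -0.29 over all genes, and 80 of 91 lay below 0, beside 86.0% of all genes. After median-ratio scaling the median was 0.04 and 38 of 91 lay below 0, beside 50.7% of all genes. By class, the median difference as deposited was -0.21 for the 6 sugar transporters tested, -0.22 for 12 amino acid transporters, -0.35 for 4 choline transporters, -0.23 for 13 nucleoside and nucleotide-sugar transporters and -0.29 for 11 mitochondrial carriers. Without Dokana replicate 3 the median moved to -0.14 for the 91 genes and to -0.13, -0.12, -0.02 and -0.16 for the sugar, amino acid, nucleotide and mitochondrial classes. Without Dokana replicate 2 it was -0.36 for sugar transporters and -0.35 for the nucleotide class, and without Djasinga replicate 3 it was -0.35 for the nucleotide class. After median-ratio scaling of all 6 libraries the class medians were 0.0095, 0.0029, -0.094, 0.055 and 0.018. The sums of the choline class did not overlap, at 63.5 to 85.5 TPM in Dokana and 39.1 to 53.1 TPM in Djasinga, and followed SLC44A1. As a share of named protein-coding TPM the choline class did overlap, at 0.0703% to 0.0852% in Dokana and 0.0586% to 0.0736% in Djasinga. The sums of the other 4 classes overlapped between the lines.

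**Figure D4:**
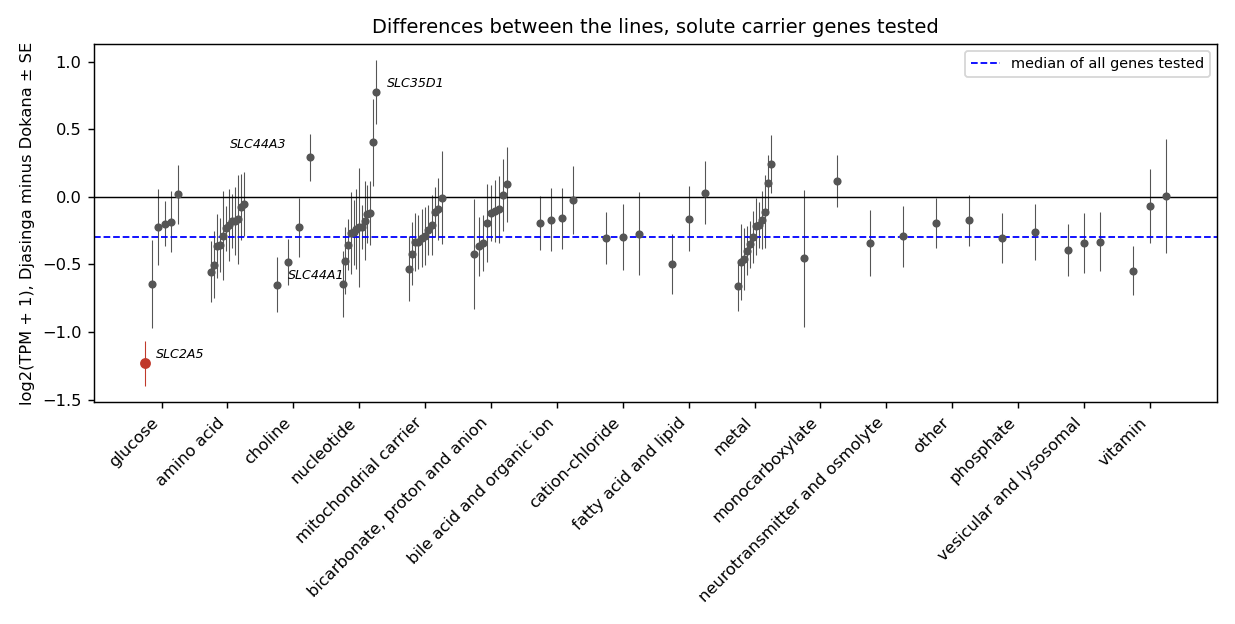
Difference in log2(TPM + 1), Djasinga minus Dokana, with its SE from limma, for the 91 solute carrier genes tested, by substrate class. The dashed line is the median of all 6255 genes tested (-0.29) and red marks SLC2A5, the 1 gene past the threshold; most genes lie around the dashed line.

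Groups that do not overlap were common in this table, with 17 of the 91 lower and 2 higher in all Djasinga libraries, against 24.5% and 1.18% of all genes tested. Of the 76 solute carriers tested with at least 2 TPM in the higher line, 14 were lower in all Djasinga libraries, against 26.4% of all such genes, and 2 were higher, SLC35D1 and SLC44A3, against 1.14%. SLC2A5, SLC44A1, SLC35G2, SLC36A4, SLC19A1 and SLC27A1 had the 6 largest differences among the 14. Of these 6, SLC35G2, SLC36A4 and SLC27A1 overlapped between the lines after median-ratio scaling. After median-ratio scaling 6 of the 91 did not overlap on the lower side and 3 on the higher, against 7.1% and 6.19% of all genes. SLC39A8, a zinc and manganese importer, was at 1.12, 1.11 and 1.70 TPM in Dokana and 0.436, 0.372 and 0.548 TPM in Djasinga, and was chosen for naming after its values were seen. It and SLC16A10 are among the 17 and entered the fit through Dokana alone, so their direction was fixed by the filter.

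Levels also differed between libraries of 1 line. The highest library was 1.501 times the lowest in Dokana and 1.55 times in Djasinga for the median solute carrier tested, beside 1.49 and 1.52 times for all genes tested. In 16 of 91 genes (17.6%) the range within Dokana was at least 2-fold, and in 16 of 91 (17.6%) within Djasinga, beside 16.8% and 22.1% of all genes tested. Genes with a library at 0 have no such ratio, were left out of the medians and were counted here as under 2-fold. They were 1 solute carrier in Dokana and 0 in Djasinga, and 301 and 412 of all 6255 genes tested. The shares are therefore lower bounds, more so for all genes. Djasinga replicate 3 was the highest of the 6 libraries for 34 of 91 genes after median-ratio scaling and the lowest for 21, against 26.2% and 24.7% of all genes tested.

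Djasinga replicate 3 was compared with the median of the other 5 libraries after median-ratio scaling, and the 6 solute carriers with the largest deviation are described here. SLC29A1 (0.65) and SLC2A5 (-0.65) had deviations of the same size as the smallest of the 6. SLC5A6 deviated by 1.24 on the log2 scale, with 7.48, 12.2 and 24.8 scaled TPM in Djasinga replicates 1, 2 and 3 against 8.18 to 13.1 in Dokana. SLC38A5, a glutamine and serine transporter, deviated by 0.99, with 2.76, 4.32 and 8.31 scaled TPM in Djasinga against 3.68 to 5.43 in Dokana. SLC35G1 (0.74), SLC35B1 (0.73), an ATP/ADP exchanger of the endoplasmic reticulum, and SLC39A14 (0.65), a zinc, iron and manganese importer, followed. SLC35B1 and SLC35G1 were highest in replicate 3 of Dokana as well, at 9.37 and 5.19 TPM as deposited. SLC35D1 (0.71) also met this rule, but there Djasinga replicate 3 was the lowest of its line and the deviation is that of the line.

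**Figure D5:**
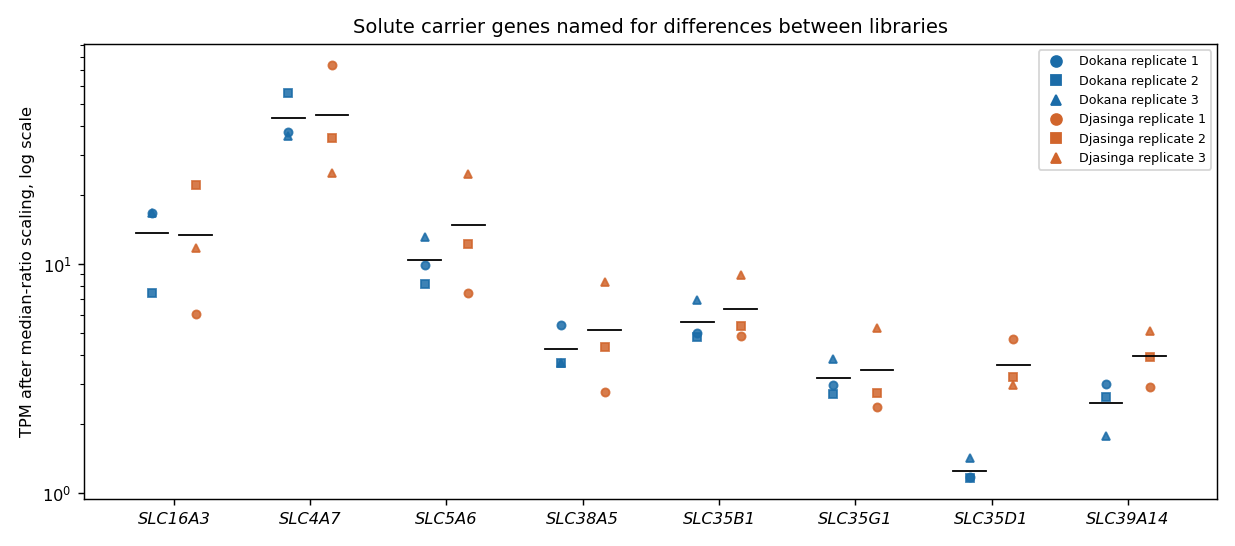
TPM after median-ratio scaling, on a log scale, of 8 solute carrier genes named for differences between libraries. Colour marks the line, symbol the replicate and black bars the line mean. SLC5A6, SLC38A5, SLC35B1, SLC35G1 and SLC39A14 are highest in Djasinga replicate 3. SLC4A7 is highest in Djasinga replicate 1, and the lines do not overlap in SLC35D1.

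Transporters that belong to the solute carrier superfamily under other symbols were described in the same way. Of 62 such genes 43 were paired and 19 tested, with 0 past the threshold in either direction (limma), 1 at an unadjusted p under 0.05 and a median log2 difference of -0.10. Over all genes tested the values were 0.352%, 14.8% and -0.29. NIPA2, a magnesium transporter, was at 16.1, 16.9 and 21.3 TPM in Dokana and 19.8, 11.7 and 24.1 TPM in Djasinga. MTCH2, a protein of the outer mitochondrial membrane, was at 16.3, 14.03 and 19.6 TPM and 8.78, 13.5 and 12.1 TPM, and SFXN1, a mitochondrial serine transporter, at 14.7, 13.5 and 16.8 TPM and 14.3, 11.6 and 9.61 TPM. MFSD10 was at 7.16, 7.05 and 11.7 TPM in Dokana and 7.40, 7.67 and 7.44 TPM in Djasinga. Of 18 genes that power or escort solute carriers only 4 were paired. Of these 3 were tested, and 0 passed in either direction (limma, 0 at an unadjusted p under 0.05), against the same shares of all genes.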

How the data were processed

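The values are TPM per transcript, deposited by the authors for 58409 transcripts in 6 libraries and scaled by them to the same total per library, per the file headers. Trimmomatic 0.39, FastQC 0.11.9, STAR and StringTie are named in the submitters' processing notes, without roles. Quantifier, genome build and annotation: not given in the sources used here. The authors' 0 or 1 marks for HERV entries were not used.

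Symbols came from the RefSeq table of assembly NHGRI_mPonAbe1-v2.0, used for names only. Accessions were matched without version, which paired 22113 of 43705 RefSeq transcripts (3321 with the version too; 42 solute carriers keep a transcript then). Roles of genes are those known from human or other mammals. Substrate classes follow the SLC family number, with some single genes moved by known substrate. A class can therefore hold genes with other substrates, and SLC43A3 was left with its family in the amino acid class.

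Limma-trend was run on log2(TPM + 1) over all genes, or all transcripts, that reached 1 TPM in 3 libraries or more. Fold changes on this scale understate changes of low genes. Median-ratio scaling used genes above 0 in all libraries. The members, classes, lists and tests were chosen with earlier results of these data known. Named genes are called members, the 6 highest of each of the 5 main classes, the 3 highest of other classes, the largest non-overlapping differences, those that deviate most in Djasinga replicate 3, and the 4 highest of each related list. Some genes that meet this rule are not reported here. The labels give the replicate number under a batch tag, so it was taken to pair libraries. Deviations of same-numbered libraries from their line mean correlated by -0.093, -0.13 and 0.15 across genes. The fits were tested on simulated data that lacked the shift of the median gene between the lines. They recovered 38% of genes and 16% of transcripts with a log2 change of 1. At a log2 change of 2 they recovered 88% and 78%. False calls were 8 of 166 for genes and 15 of 152 for transcripts. Python 3.11.15, pandas 2.3.3, numpy 2.4.6, matplotlib 3.10.9, R 4.3.3 and limma 3.58.1 were used.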

Additional observations from a re-analysis of the deposited data

How the results depend on the processing

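The 1 solute carrier gene called, SLC2A5, became 0 with the replicate block, with the block and median-ratio scaling, with median-ratio scaling, with quantile normalization, with no filter, with a minimum of 5 TPM, with the accession version required, and without the most abundant transcript. It was 0 without each library in turn (0 to 0) and 1 with other pseudocounts, limma settings or protein-coding genes alone (limma adjusted p 0.00514 there). The 2 solute carrier transcripts called became 1 with the replicate block, a minimum of 5 TPM, quantile normalization, a pseudocount of 0.1 or 0.5, or without the most abundant transcript, 0 with no filter, and 0 to 1 leaving out a library.

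Over all genes the 22 calls became 5 with the replicate block, 1 with block and median-ratio scaling, 9 at 5 TPM, 10 with a pseudocount of 0.1, 48 with protein-coding genes alone, 0 with the version required, and 7 to 23 leaving out a library. The 232 transcripts called became 152 with the replicate block, 99 with no filter, 103 at 5 TPM, 107 with a pseudocount of 0.1, and 100 to 211 leaving out a library.

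Class medians moved with median-ratio scaling, to 0.042 for all solute carriers tested and 0.0095, 0.0029, -0.094, 0.055 and 0.018 for sugar, amino acid, choline, nucleotide and mitochondrial classes. At a minimum of 5 TPM they were -0.64 (sugar) and -0.65 (choline), with few genes left in these classes. The choline value there is the difference of SLC44A1 alone and not a median over genes. The differences of SLC19A1, SLC27A1, SLC35D1, SLC35G2, SLC36A4, SLC44A1 and SLC44A3 kept their sign and stayed short of the threshold under every alternative run. The fits without the most abundant transcript and with block and scaling together were chosen after seeing the data. TPM keeps no depth, so what depth limits cannot be given. The cause of the changes was not tested.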
